A study of Homo sapiens with 6 samples.

Results

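The genes described here are 10 mucins: the secreted, gel-forming MUC2, MUC5AC, MUC5B and MUC6, and the membrane mucins MUC1, MUC4, MUC12, MUC13, MUC16 and MUC20. They were taken by symbol, and all 10 were found among the 62700 genes of the counted annotation. Their levels were not a rule for choosing them, but earlier results of these data were known when they were chosen. RNA sequencing was done on cultures labelled MKN-45, a human line established from a gastric adenocarcinoma, grown in RPMI-1640 medium with fetal bovine serum. The groups are control (3 libraries) and labelled NNMT knockdown (3 libraries), with cells taken 48 h after transfection. Per the labels, the libraries within a condition are biological replicates made independently. The labels name both siRNA and shRNA as the transfected RNA, and they call the controls untouched in one place and shRNA negative control in another. Nothing in the labels says how many siRNA or shRNA sequences were used.

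Library totals ran from 40558680 to 56067484 reads, with a mitochondrial share of 3.9% to 4.81%. NNMT, the gene named as the target, had 0, 8 and 12 reads in control replicates 1, 2 and 3, and 2, 8 and 14 in replicates 1, 2 and 3 labelled NNMT knockdown, so its level checked nothing and the groups are called by their labels throughout. The labelled tissue was also set against its markers. Of 19 gastric epithelium markers, 13 lay below 1 CPM (counts scaled to the library total) in every library. The stomach genes GKN1, PGA3, LIPF and GATA4 had 0 reads in all 6. Another 5 lay at or above 1 CPM in every library: MUC5AC, MUC6, ANXA10, GATA6 and TFF1. Of 16 intestinal markers, 15 lay below 1 CPM in every library, and CDX1, CDX2, FABP1, ALPI and OLFM4 had 0 reads. The other was MUC2, at 6.84 to 18.2 CPM. Of 14 epithelial markers, 12 lay at or above 1 CPM in every library and 5 above 50 CPM (KRT7, KRT8, KRT18, KRT19 and CLDN4). Of 15 mesenchymal markers, 13 lay at or above 1 CPM in every library and 10 above 50 CPM, among them VIM, FN1, CDH2, ZEB1, SNAI2 and SPARC. The summed level ran from 1866 to 2168 CPM for the epithelial list and from 10780 to 16570 CPM for the mesenchymal list. These sums are not per exon length, so the lists are not compared by them. COL6A1, COL6A2 and FN1, which averaged 4622, 4747 and 2315 CPM over all libraries, made up much of the mesenchymal sum. Of 10 blood and endothelial markers, 8 lay below 1 CPM in every library, and CD3E and HBA1 had 0 reads. PECAM1 lay between 17.7 and 26.1 CPM. The summed level of the gastric markers ran from 52.7 to 111 CPM in control and from 58.1 to 120 CPM in libraries labelled NNMT knockdown. This sum includes MUC5AC and MUC6, which made up much of it. They were at 8.97 and 25.7 CPM in control replicate 1 (sum 52.7 CPM). In control replicate 3 (sum 111 CPM) they were at 5.35 and 84.1 CPM. The sum is thus not a measure apart from the mucins. The part of differences in the other markers in the mucin levels was not tested.

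Mucins are long proteins rich in serine, threonine and proline that carry dense chains of O-linked sugars. Gel-forming mucins are packed in granules, released and joined by disulfide bonds into the mucus that covers the stomach, gut and airways. Membrane mucins stay on the apical cell surface, where they form part of the glycocalyx and can signal through their cytoplasmic ends. In normal stomach, MUC5AC is the surface mucin and MUC6 that of the deeper glands, while MUC2 marks intestinal goblet cells.

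Coordinates are those of the deposited table on hg38. The 4 gel-forming genes lie side by side on chromosome 11 within 249350 bases: MUC6 (ENSG00000184956.16, minus strand, 1012823 to 1036718), MUC2 (plus, 1074875 to 1110511), MUC5AC (plus, 1157953 to 1201138) and MUC5B (plus, 1223066 to 1262172). Chromosome 3 holds MUC20 (plus, 195720884 to 195741123) and, 5641 bases on, MUC4 (minus, 195746765 to 195811973), and further away MUC13 (minus, 124905442 to 124953819). MUC1 lies on chromosome 1 (minus, 155185824 to 155192916), MUC12 on chromosome 7 (plus, 100969565 to 101018939) and MUC16 on chromosome 19 (minus, 8848844 to 9010390). Their merged exons differ widely in length, from 2401 bases in MUC1 to 44165 bases in MUC16, so levels were compared between genes only as RPKM, the CPM divided by the exon length in kilobases.

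RefSeq start-site windows (GRCh38.p14) were matched for 6 of the 10 genes. The 250 bases before the start are printed for MUC1 and MUC2, the most abundant mucins with such a window, because they differ in these letters. Capitals mark matches on either strand, overlapping matches included. The motifs are the TATA motif TATAAA, the GC box core GGGCGG, the forkhead motif TGTTTAC, and TGANTCA. The last is a loose form of the AP-1 motif in which N is any base, so a match need not be an AP-1 site. The MUC1 window is chr1:155192916-155193165 on the minus strand, 1 of 2 listed starts, and that of MUC2 is chr11:1074624-1074873 on the plus strand.
MUC1: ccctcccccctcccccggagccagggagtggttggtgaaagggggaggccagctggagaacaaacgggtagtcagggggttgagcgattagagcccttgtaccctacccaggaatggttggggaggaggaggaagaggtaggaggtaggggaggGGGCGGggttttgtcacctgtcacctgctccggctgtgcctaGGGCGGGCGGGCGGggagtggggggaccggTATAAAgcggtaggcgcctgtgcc
MUC2: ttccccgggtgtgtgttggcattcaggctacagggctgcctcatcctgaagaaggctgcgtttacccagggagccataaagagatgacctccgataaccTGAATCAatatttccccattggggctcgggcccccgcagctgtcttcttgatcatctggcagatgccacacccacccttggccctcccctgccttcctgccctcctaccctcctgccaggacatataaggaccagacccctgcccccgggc
The MUC1 window had a GC content of 66%, 4 matches to GGGCGG and 1 to TATAAA, which begins 24 bases before the start. The MUC2 window had a GC content of 59.6% and 1 match to TGANTCA, with A as its middle base. Of 35116 windows of 250 bases, 42.6% held GGGCGG, 10.7% TATAAA, 6.57% TGANTCA and 2.98% TGTTTAC. A match describes these letters only.

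MUC6 and MUC1 were the most abundant mucins per exon length, and MUC4 the least. MUC6 averaged 6.03 RPKM over the 6 libraries and MUC1 3.8 RPKM. MUC6 lay above MUC1 in 5 of the 6 libraries, and their ranges overlapped. MUC2 followed at 1.17 RPKM, and MUC1 was the single gene in this order whose range did not overlap that of the next. MUC5B and MUC5AC averaged 0.686 and 0.656 RPKM, each above the other in 3 libraries. MUC20 averaged 0.264, MUC13 0.169, MUC12 0.0775, MUC16 0.0535 and MUC4 0.0298 RPKM, with overlapping ranges between each neighbouring pair. With the longest GENCODE 29 transcript as the length, a choice made after the data were seen, the order stayed the same, with MUC1 at 2.19 and MUC20 at 0.635 RPKM. In bulk RNA, fewer cells making a mucin and less mucin RNA per cell cannot be told apart.

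**Figure D1:**
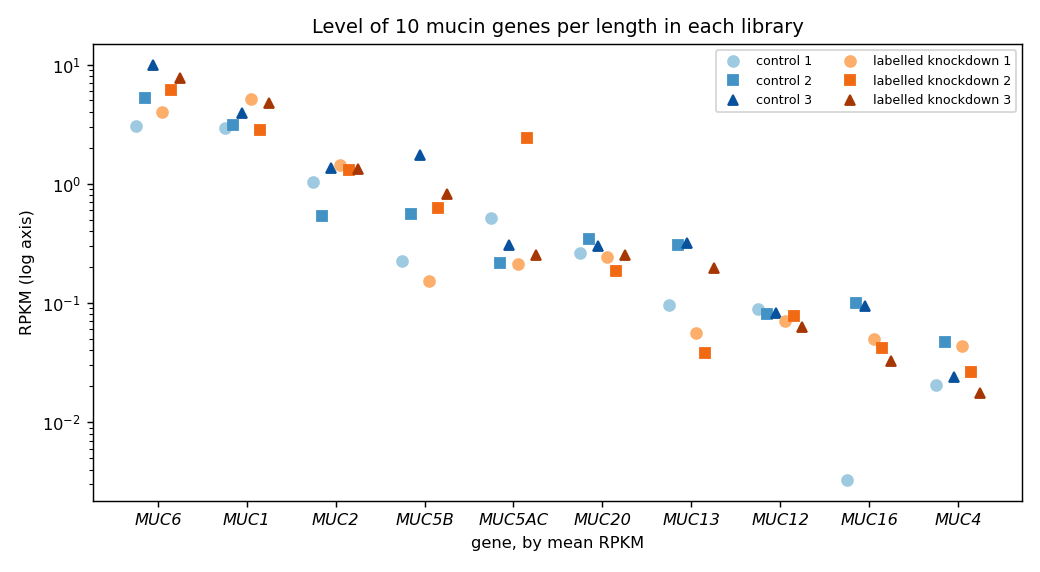
RPKM (log axis) of the 10 mucin genes in order of their mean, with 1 point per library, controls in blue and libraries labelled NNMT knockdown in orange. MUC6 and MUC1 lie on top, and MUC5AC, MUC5B and MUC16 are spread the most.

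Among the 10 mucins, the gel-forming genes made up most of the summed RPKM in every library. They held 58.4%, 62.4% and 73.6% of the summed mucin RPKM in control replicates 1, 2 and 3, and 51%, 76.7% and 65.3% in replicates 1, 2 and 3 labelled NNMT knockdown. The share averaged 64.8% ± 7.9 in control and 64.3% ± 12.9 in the labelled libraries (SD, n = 3 each), and the groups overlapped. The summed RPKM itself went from 8.26 in control replicate 1 to 18.1 in control replicate 3. All 3 labelled libraries lay between these controls, at 11.4, 13.7 and 15.4. The membrane mucin MUC3A, which averaged 1.07 RPKM over all libraries, is not among the 10. With it in the sum the gel-forming share would be lower. In replicate 1 labelled NNMT knockdown MUC3A was at 1.24 RPKM. With it in the sum there, the gel-forming genes would no longer make up most of it.

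**Figure D2:**
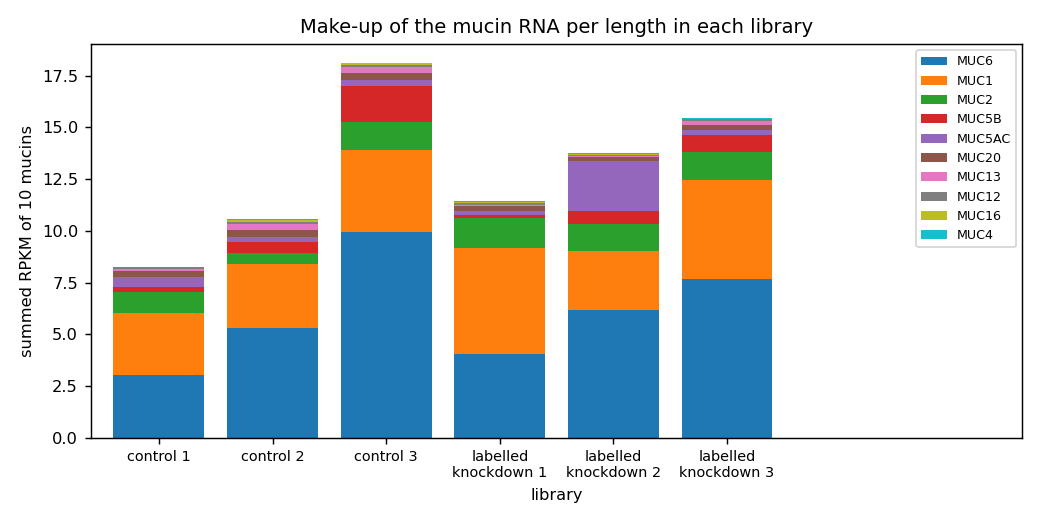
Summed RPKM of the 10 mucins in each library (bars from 0, stacked by gene). MUC6 takes 35.2% to 54.9% of the sum, and MUC5AC takes 17.7% in replicate 2 labelled NNMT knockdown against 1.63% to 6.22% elsewhere.

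MUC6, the gland mucin, was measured at 25.7, 44.6 and 84.1 CPM in control replicates 1, 2 and 3 and at 34, 52 and 64.9 CPM in replicates 1, 2 and 3 labelled NNMT knockdown. Control replicates 1 and 3 were its lowest and highest libraries, and the labelled libraries fell between them. MUC6 lies 577 bases from AP2A2, an adaptor protein gene on the opposite strand whose 3′ end faces its own. Reads were counted without strand, and AP2A2 itself lay between 102 and 116 CPM. The fitted log2 fold change of MUC6 (labelled knockdown over control) was -0.03 (SE 0.505), and it was 0.51 without control replicate 3, 0.18 without replicate 1 labelled knockdown and 0.064 in limma-voom.

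MUC2, the goblet cell mucin, was measured at 13.2, 6.84 and 17.1 CPM in control replicates 1, 2 and 3. The labelled libraries were close together at 18.2, 16.7 and 16.7 CPM. Control replicate 2 was low, and control replicate 3 lay inside the labelled range. The control mean was 12.4 ± 5.16 CPM and the labelled mean 17.2 ± 0.892 CPM (n = 3 each, SD), with a fitted log2 fold change of 0.48 (SE 0.291). It was 0.19 without control replicate 2 and 0.77 without control replicate 3.

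MUC5AC, the stomach surface mucin, was measured at 8.97, 3.75 and 5.35 CPM in control replicates 1, 2 and 3. In replicates 1, 2 and 3 labelled NNMT knockdown it was at 3.67, 42.5 and 4.4 CPM. Replicate 2 labelled knockdown stood alone, with 1929 reads against 149 to 373 in the other libraries. The other labelled libraries lay inside or just below the control range. The fitted log2 fold change was 1.47 (SE 1.17) with that library and -0.57 without it. The highest level was 11.6 times the lowest, and 2.44 times without that library.

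MUC5B, a mucin of airway and salivary glands, lies 21927 bases from MUC5AC and did not share its peak. It was measured at 4.18, 10.3 and 32.2 CPM in control replicates 1, 2 and 3 and at 2.84, 11.6 and 15.3 CPM in replicates 1, 2 and 3 labelled NNMT knockdown. Control replicate 3 was highest and replicate 1 labelled knockdown lowest, and in neither group was the highest library the one highest for MUC5AC. The highest level was 11.4 times the lowest, and 5.4 times without control replicate 3. The fitted log2 fold change was -0.65 (SE 0.993), and 0.44 without control replicate 3. The overlapping genes MUC5B-AS1 and MIR6744 had 0 reads. TOLLIP, the next coding gene beyond MUC5B, stayed between 51.3 and 59 CPM, so the gene flanking the cluster at each end varied little while the mucins between them differed from library to library.

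**Figure D3:**
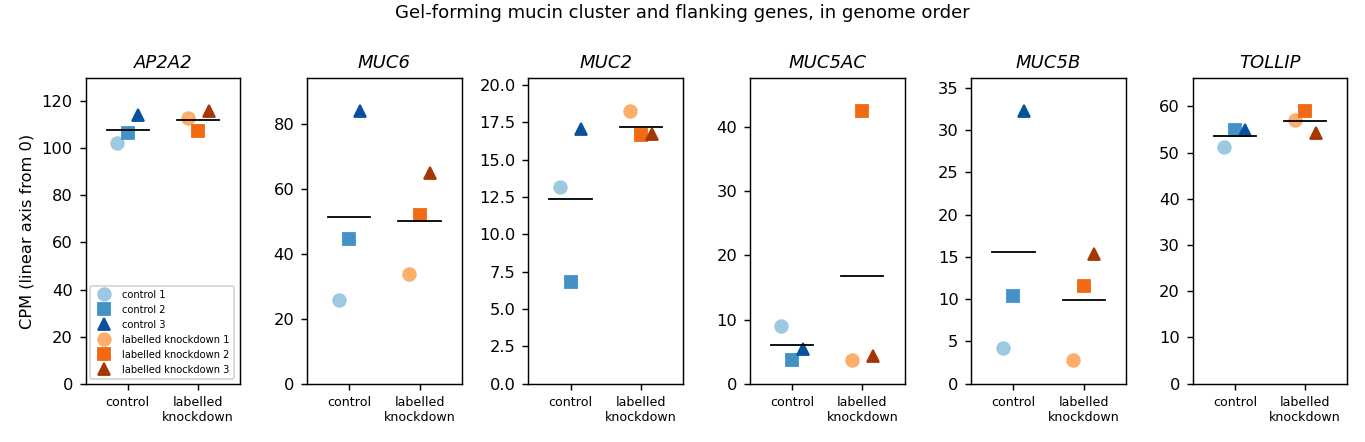
CPM (linear axes from 0, scaled per gene) of the 4 gel-forming mucins and the flanking genes AP2A2 and TOLLIP in genome order, 1 point per library, with bars at group means. AP2A2 (102 to 116 CPM) and TOLLIP (51.3 to 59 CPM) are flat, while MUC5AC peaks in replicate 2 labelled NNMT knockdown and MUC5B in control replicate 3.

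Among the membrane mucins, MUC1 was the most abundant per length. It carries a repeat-rich outer part and a cytoplasmic end that is phosphorylated by receptor kinases. MUC1 was measured at 7.12, 7.45 and 9.51 CPM in control replicates 1, 2 and 3 and at 12.4, 6.83 and 11.5 CPM in replicates 1, 2 and 3 labelled NNMT knockdown. Replicates 1 and 3 labelled knockdown were above all controls, and replicate 2 labelled knockdown was below them all. The mean was 8.02 ± 1.29 and 10.2 ± 2.98 CPM (SD, n = 3), with a fitted log2 fold change of 0.36 (SE 0.228). The gene ENSG00000273088, which shares 48 exon bases with MUC1, had 0 reads.

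MUC20, a small membrane mucin known to bind the MET receptor, was measured at 1.78, 2.34 and 2.07 CPM in control replicates 1, 2 and 3 and at 1.65, 1.26 and 1.73 CPM in those labelled NNMT knockdown. The groups did not overlap, by a margin between 1.73 and 1.78 CPM. Of the exon bases of MUC20, 27.1% are shared with the long noncoding gene MUC20-OT1 on the same strand, which lay between 49.8 and 59.7 CPM. Reads that overlap both genes were not counted, so the level of MUC20 is uncertain, also because a pseudogene copy, MUC20P1, lies on the same chromosome.

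MUC12, a membrane mucin of the colon, was the steadiest of the 10. It was measured at 1.54, 1.39 and 1.43 CPM in control replicates 1, 2 and 3 and at 1.21, 1.34 and 1.08 CPM in those labelled NNMT knockdown. The groups did not overlap, and each value rests on 47 to 80 reads. MUC12 starts 1217 bases after MUC3A, a related membrane mucin at 8.92 to 14.8 CPM, and read sharing between their repeats was not tested. The antisense gene MUC12-AS1, which overlaps its exons, lay between 0.023 and 0.148 CPM.

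MUC16, the very large membrane mucin that carries the CA125 antigen and binds mesothelin, varied the most. Control replicates 2 and 3 held 211 and 235 reads, or 4.38 and 4.19 CPM, and control replicate 1 held 6 reads, or 0.144 CPM (95% exact Poisson interval 0.0529 to 0.314, for counting error only and too narrow because mates were counted singly). Replicates 1, 2 and 3 labelled NNMT knockdown lay between them at 2.19, 1.85 and 1.43 CPM. The highest level was 30.3 times the lowest, and 3.07 times without control replicate 1. The fitted log2 fold change was -0.67 (SE 1.01), -1.22 without control replicate 1 and 0.15 in limma-voom.

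MUC13 and MUC4 were below 1 CPM on average. MUC13, an epithelial mucin with EGF-like domains, was measured at 0.337, 1.08 and 1.11 CPM in control replicates 1, 2 and 3 and at 0.197, 0.132 and 0.69 CPM in those labelled NNMT knockdown. Its lowest library held 6 reads, and replicate 3 labelled knockdown lay above control replicate 1. MUC4, whose EGF-like domains bind the ERBB2 receptor, was measured at 0.433, 0.996 and 0.499 CPM in control replicates 1, 2 and 3 and at 0.912, 0.551 and 0.368 CPM in those labelled knockdown. The fitted log2 fold change was -1.3 (SE 0.652) for MUC13, -2.34 without replicate 3 labelled knockdown and -0.91 without replicate 2 labelled knockdown. For MUC4 it was -0.07 (SE 0.478), 0.39 without control replicate 2, 0.0049 without replicate 2 labelled knockdown and 0.19 without replicate 3 labelled knockdown.

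The comparison between the groups asks whether mucin RNA differed between libraries labelled NNMT knockdown and control. No mucin passed edgeR's quasi-likelihood test at an adjusted p under 0.05, with 0 of 10 higher and 0 of 10 lower. Over all 20250 genes tested, 0 passed in either direction, a background of 0%. Of the 10 mucins, 0 had an unadjusted p under 0.05, where the background was 4.03% of genes, 1.98% higher and 2.05% lower. That count depended on the fit, as did the count over all genes. In edgeR without a filter on low counts it was 3 of 10, where 1792 of 37861 genes had such a p. In DESeq2 it was 1 of 10 (810 of 20250 genes). With replicate number as a block it was 2 of 10 (885 of 20250 genes). Without control replicate 1 it was 2 of 10 (1180 of 21212 genes). It was 1 of 10 without control replicate 3 (1082 of 20742 genes). The same held without replicate 2 labelled knockdown (902 of 20794 genes) or replicate 3 labelled knockdown (1397 of 21072 genes). The lowest p was that of MUC13 (unadjusted 0.0747, edgeR adjusted p = 0.9995), whose control mean was 0.84 ± 0.436 CPM and labelled mean 0.34 ± 0.305 CPM (n = 3 each, SD). DESeq2, limma-voom and edgeR without a filter on low counts also called 0 mucins, against backgrounds of 0.0395%, 0% and 0.19% of genes. DESeq2 gave no adjusted p for MUC5AC, so its result covers the other mucins only.

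All 10 mucins passed the filter on low counts. Of them, 3 had a fitted fold change above 1 and 7 below, with a median log2 fold change of -0.16 against 0.003 over all genes. For the 4 gel-forming genes the median was 0.23, and for the 6 membrane mucins -0.34. The groups did not overlap for 2 of 10, MUC20 and MUC12, both lower in the libraries labelled NNMT knockdown, where 4.88% of all genes were lower without overlap, 4.29% were higher and 9.17% did not overlap in either direction. A two-sided exact permutation test on log2 CPM gave p = 0.1 for both, the smallest that 3 against 3 libraries allow, before any adjustment.

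The precision differed between members. The 95% interval of the fold lay within 2-fold for MUC1 (0.901 to 1.82), MUC20 (0.507 to 1.11) and MUC12 (0.559 to 1.25). For the other 7 it reached 2-fold or beyond. It ran from 0.317 to 24.2 for MUC5AC, from 0.102 to 4 for MUC5B and from 0.106 to 3.73 for MUC16, so differences of several-fold in these genes could not be detected at this spread. For 6 of the 10 mucins the difference between group means was smaller than the pooled SD of the libraries.

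**Figure D4:**
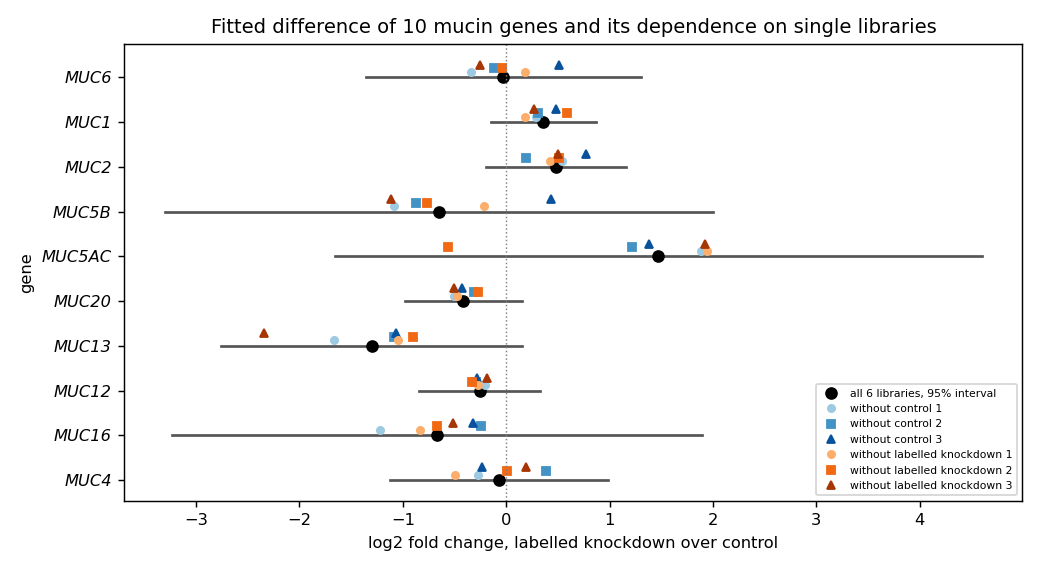
Fitted log2 fold change of each mucin (labelled NNMT knockdown over control) with its 95% interval from all 6 libraries (black), and the estimate when each library is left out (coloured). All intervals include 0, and MUC5AC moves from 1.47 to -0.57 without replicate 2 labelled knockdown.

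Several mucins were spread widely between libraries. The highest level was over 3 times the lowest for 5 of 10 mucins: MUC6, MUC13, MUC5B, MUC5AC and MUC16. It was under 2 times for MUC1, MUC20 and MUC12. Within the control group alone 4 mucins exceeded 3 times, and within the labelled group 3 did. The range of log2(CPM + 0.1) over the 6 libraries was 4.2 for MUC16, 3.5 for MUC5AC and 3.46 for MUC5B, against a median of 0.56 over the 20250 genes. These 3 were in the top 1% of all genes tested, at the 99.9th, 99.7th and 99.7th percentiles. Of the 10 mucins, 9 were above the median range of all genes tested, and MUC12 was at the 42.6th percentile. Among the 15170 tested genes with a mean of at least 1 CPM, MUC12 was at the 56.3rd percentile. These percentiles are descriptions, with no test.

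No library was high for all mucins. MUC6, MUC5B and MUC13 were highest in control replicate 3, MUC4, MUC16 and MUC20 in control replicate 2, MUC1 and MUC2 in replicate 1 labelled NNMT knockdown, MUC5AC in replicate 2 labelled knockdown and MUC12 in control replicate 1. Control replicate 3 was also the most deeply sequenced library, with 56067484 reads, and CPM corrects for that total.

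The genes whose profile over the 6 libraries came closest to each of the 8 mucins with a mean of at least 1 CPM were found by the root mean square difference of centred log2(CPM + 0.1) among 15173 genes. With this many candidates and 6 libraries, likeness is a description only. Nearest to MUC5AC were PRKAR2B, a regulatory subunit gene of protein kinase A, at 0.322, then CAVIN1 and IGFN1. PRKAR2B was at 3.68 CPM in replicate 2 labelled NNMT knockdown and between 0.247 and 1.2 CPM elsewhere. Nearest to MUC5B were IGFBP5 at 0.467, SLPI, a secreted protease inhibitor gene, at 0.473, and EGF at 0.496. Nearest to MUC16 were HSD11B2 at 0.588, PAEP, which encodes glycodelin, at 0.589, and the matriptase gene ST14 at 0.61. Like MUC16, ST14 was lowest in control replicate 1, at 0.361 CPM, against 5.91 and 7.47 CPM in control replicates 2 and 3. MUC6 was closest to COLGALT2 (0.109), EFCAB13-DT and PGF, and MUC2 to GALNT7-DT (0.147), ENSG00000283544 and IL31RA. MUC1 was closest to RUNX2 (0.0662), MILR1 and VAC14-AS1, MUC20 to TLE4 (0.0402), NDUFA4L2 and TP53INP1, and MUC12 to ZNF571 (0.0446), TFB1M and DNAJC7.

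**Figure D5:**
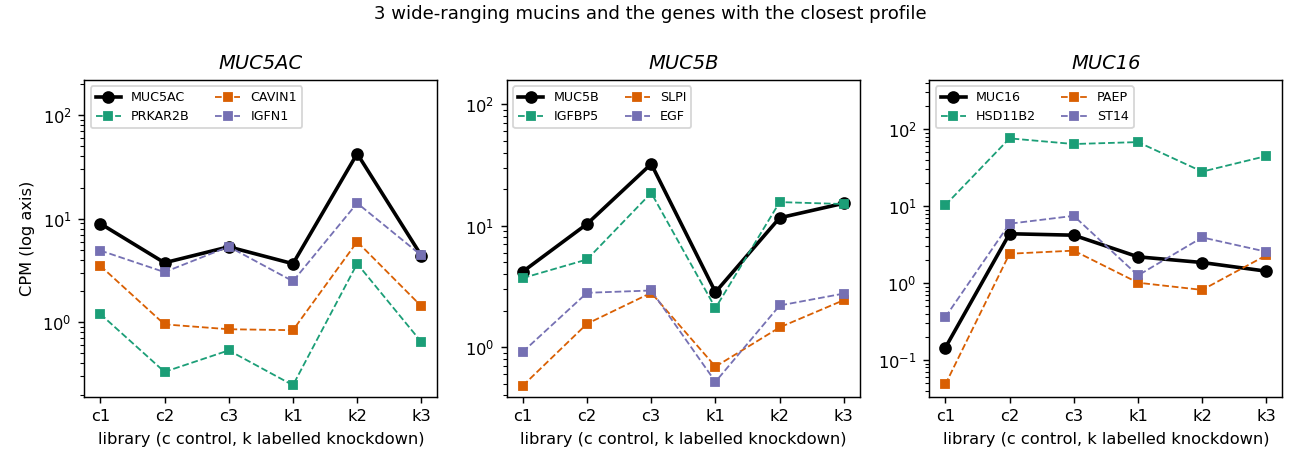
CPM (log axes) of MUC5AC, MUC5B and MUC16 over the 6 libraries, each with the 3 genes of closest profile. PRKAR2B reaches 3.68 CPM in the library where MUC5AC reaches 42.5 CPM, and ST14 is lowest, at 0.361 CPM, where MUC16 is at 0.144 CPM.

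Of 15 other mucins and mucin-like genes, 7 passed the filter on low counts, and 0 rose and 0 fell. CD164, a sialomucin of many cell types, had a control mean of 1474 ± 191 CPM and a labelled mean of 1442 ± 217 CPM (n = 3 each, SD). The podocalyxin gene PODXL was at 439, 262 and 407 CPM in control replicates 1, 2 and 3 and at 620, 680 and 460 CPM in replicates 1, 2 and 3 labelled knockdown. Its groups did not overlap (log2 fold change 0.67, SE 0.218, edgeR adjusted p = 0.9995). It passed in 1 of 16 alternative fits, edgeR without the filter (adjusted p = 0.0193). The adjusted p was 0.222 in DESeq2 and 0.9925 in limma-voom. MUC3A averaged 11.8 ± 2.94 and 12.6 ± 2.48 CPM, OVGP1, an oviduct glycoprotein gene, 8.79 ± 1.17 and 8.16 ± 2.03 CPM, and MCAM 13.4 ± 1.63 and 12.5 ± 6.2 CPM. MUC19, MUC21, MUCL1 and EMCN had 0 reads in all 6 libraries, and MUC17 had 0 reads in the 3 labelled libraries and 0, 7 and 6 in control replicates 1, 2 and 3.

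Of 35 genes that attach sugars to mucins, 28 were tested, 0 rose and 0 fell, and the median log2 fold change was -0.03. GALNT2 and GALNT6, which start O-glycosylation, averaged 24.8 and 24.9 RPKM over all libraries, and C1GALT1C1, the chaperone of the core 1 enzyme, 16 RPKM. The sialyltransferase gene ST3GAL1 was the highest of the list, with a control mean of 1955 ± 142 CPM and a labelled mean of 1757 ± 100 CPM (n = 3 each, SD). ST3GAL4, with the lowest p, averaged 57.6 ± 3.63 and 51 ± 3.6 CPM (log2 fold change -0.17, SE 0.0872). GALNT12 averaged 4.56 ± 1.19 and 6.21 ± 1.31 CPM, and B4GALNT3 1.11 ± 0.84 and 0.537 ± 0.415 CPM. A4GNT, the gastric gland enzyme that caps MUC6 sugars, stayed below 1 CPM in all libraries.

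Of 26 genes of mucus granules and the secretory programme, 16 were tested, 0 rose and 0 fell, and the median log2 fold change was -0.07. AGR2, a disulfide isomerase needed for mucin folding, had a control mean of 412 ± 128 CPM and a labelled mean of 410 ± 109 CPM (n = 3 each, SD). The transcription factor gene SPDEF, which drives goblet cell maturation, was at 72.1, 69.5 and 71.3 CPM in control replicates 1, 2 and 3 and at 103, 91.4 and 74.9 CPM in replicates 1, 2 and 3 labelled NNMT knockdown. Its groups did not overlap (log2 fold change 0.34, SE 0.114), with an unadjusted p of 0.0119 and an edgeR adjusted p = 0.9995. FOXA1 averaged 118 ± 22.9 and 99.2 ± 3.43 CPM, GFI1 0.683 ± 0.169 and 0.373 ± 0.168 CPM, and FOXA2 85.1 ± 3.06 and 95.4 ± 9.07 CPM. TFF3, a trefoil peptide gene of mucus, was at 0.481, 4.73 and 15.8 CPM in control replicates 1, 2 and 3 and at 2.71, 3.9 and 15.9 CPM in the labelled ones. The goblet cell genes ATOH1 and ZG16 had 0 reads in all 6 libraries.

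Partners and sheddases of membrane mucins were tested for 20 of the 20 genes found, of which 0 rose and 0 fell, with a median log2 fold change of -0.003. MSLN, the gene for mesothelin, the ligand of MUC16, was at 5.53, 3.61 and 6.01 CPM in control replicates 1, 2 and 3 and at 14.2, 7.8 and 7.39 CPM in those labelled NNMT knockdown. The groups did not overlap, but MSLN did not pass over all genes (log2 fold change 0.96, SE 0.299, unadjusted p 0.0109, edgeR adjusted p = 0.9995). It passed in 1 of 16 alternative fits, edgeR without the filter on low counts (adjusted p = 0.00059). The adjusted p was 0.265 in DESeq2 and 0.9925 in limma-voom. Leaving out replicate 1 labelled knockdown lowered its log2 fold change to 0.58. LGALS3, which encodes the mucin-binding galectin-3, averaged 109 ± 16.1 and 136 ± 16 CPM, and ERBB3 15.7 ± 4.06 and 11.5 ± 1.7 CPM (SD, n = 3). MET, the receptor that MUC20 binds, averaged 437 ± 12 and 419 ± 31.5 CPM, and ERBB2, the partner of MUC4, 100 ± 6.42 and 103 ± 5.75 CPM. ADAM17, a sheddase, averaged 68.6 ± 3.69 and 60.2 ± 5.46 CPM.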

How the data were processed

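The authors deposited raw counts per gene, made with featureCounts 2.0.6 on hg38 and GENCODE 44, per the file headers. An aligner was not given in the sources used here. Options for strand, multi-mapping reads, overlapping genes or counting pairs do not appear in the header's command, so mates counted singly: 73.4% to 76.7% of counts from 2 to 10 were even. CPM and RPKM were computed from library totals and deposited exon lengths.

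edgeR 4.0.16 (R 4.3.3; filterByExpr, TMM, robust quasi-likelihood test) was fitted to the 20250 genes passing the filter, with group as its term, Benjamini-Hochberg adjustment over them and a threshold of 0.05, after tests on simulated data. Alternatives were DESeq2 1.42.0, limma-voom (limma 3.58.1), other scalings and filters, a replicate block, non-robust dispersion, halved counts and leaving out each library.

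The rule for names took the 10 mucins, NNMT, genes overlapping a member, up to 4 genes of lowest p per related list, up to 6 genes per marker list above 50 CPM or at 0 in every library, and the 3 closest profiles. Flanking genes (AP2A2, TOLLIP, MUC3A) and CD164, MUC17, GALNT2, GALNT6, C1GALT1C1, A4GNT, AGR2, TFF3, MET, ERBB2 and list genes with 0 reads were named after their values were seen. So were ANXA10, GATA6, TFF1, PECAM1, COL6A1 and COL6A2. Members and lists were chosen with earlier results of these data known.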

Additional observations from a re-analysis of the deposited data

How the results depend on the processing

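Of 158 refits of mucin fold changes over 16 alternatives, 148 kept the direction and the side of the threshold, 0 passed it and 10 reversed. The 148 include MUC5AC in DESeq2, which kept its direction but had no adjusted p. MUC1, MUC2, MUC12, MUC13 and MUC20 kept their direction in every fit that tested them. On the log2 scale, limma-voom reversed MUC6 to 0.064 and MUC16 to 0.15. Leaving out 1 library moved MUC4 from -0.50 to 0.39, MUC5AC from -0.57 to 1.94, MUC5B from -1.11 to 0.44, MUC6 from -0.34 to 0.51, OVGP1 from -0.32 to 0.068, MUC3A from -0.087 to 0.29 and MCAM from -0.52 to 0.19. Fits without a library hold fewer samples; the cause was not tested otherwise. Over all genes, DESeq2 called 8, edgeR without a filter 72, and leaving out 1 library 0 to 1 (1 without control replicate 3), with 0 mucins called in each. With at least 1 CPM in 3 libraries, MUC13 and MUC4 were not tested. RPKM by protein coding length was not run.

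Same-numbered libraries correlated in their deviations at 0.0567, -0.1 and 0.219, so the replicate numbers were not taken to pair them, and not every library correlated best with its own number. With the replicate block 0 genes and 0 mucins were called, and MUC6 reversed to 0.082. In that fit 2 of 10 mucins had an unadjusted p under 0.05, beside 885 of 20250 genes. MUC13 and MUC4, at 172 total reads each, are the members most limited by depth.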

Other observations

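Among the epithelial markers, CEACAM5 and ESRP1 varied more widely than any of the 10 mucins, with a highest level 92.7 and 143 times the lowest against 30.3 times for MUC16; they were chosen after their values were seen. CEACAM5, which encodes the carcinoembryonic antigen, was at 0.288, 4.27 and 26.8 CPM in control replicates 1, 2 and 3 and at 0.74, 12.9 and 3.11 CPM in replicates 1, 2 and 3 labelled NNMT knockdown. ESRP1, an epithelial splicing regulator gene, was at 0.0481, 0.498 and 6.88 CPM in control replicates 1, 2 and 3 and at 0.148, 2.09 and 0.782 CPM in the labelled ones. Both were highest in control replicate 3, the library where MUC5B and MUC6 were highest, and lowest in control replicate 1. Control replicate 1 held 12 reads of CEACAM5 and 2 of ESRP1, so both ratios are uncertain, most so that of ESRP1. Neither passed edgeR's quasi-likelihood test, with unadjusted p of 0.622 and 0.489.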
